A study of Mus musculus with 4 samples.

Results

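The miR-379 to miR-410 cluster, the distal miRNA cluster of the imprinted Dlk1-Dio3 domain, was followed in CD4+ T cells of C57BL/6 mice. Members were the listed mature miRNAs whose name carries 1 of 31 numbers of that cluster, with any letter or arm. This gave 44 of the 1091 miRNAs listed, from 30 of the 31 numbers; for miR-539 no row was listed. The study holds 4 small RNA libraries, 1 per group: wild-type (WT) cells and cells of Cbl-b-/- mice, each left unstimulated or given an anti-CD3 antibody, which engages the T cell receptor complex, for 48 h. The unstimulated cells are called naive in the labels, all cells were cultured, and the Cbl-b-/- mice lack an E3 ubiquitin ligase that restrains T cell receptor signalling. The sources used here do not say whether a library came from 1 animal or from pooled animals.

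MicroRNAs are short RNAs cut from hairpin precursors. They guide Argonaute proteins to messenger RNAs that pair with their seed, bases 2 to 8 of the mature strand, and lower the output of those messages. The Dlk1-Dio3 domain is imprinted: Dlk1, Rtl1 and Dio3 are expressed from the paternal copy, while the noncoding RNAs Meg3, Rian and Mirg and the miRNAs are made from the maternal copy. The distal cluster is known for high levels in brain, embryo and placenta and for low levels in most adult tissues.

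The hairpins of the 44 members number 32 and span 34.7 kb of the plus strand of chromosome 12, from 109709060 to 109743795 (GRCm38). In the GENCODE M21 annotation 12 of the hairpins lie in the noncoding gene Mirg (109729764 to 109749460), 8 of them overlapping an exon and 4 in introns. The other 20 hairpins, upstream of Mirg, lie in no other annotated gene. The Rtl1-antisense cluster of miR-127, miR-434 and miR-136 lies further upstream in the same domain. Mature sequences from RefSeq (GRCm38.p6) were matched for 42 of the 44 members; miR-376c-3p and miR-487b-3p had no match. The 6 most abundant members, on which the results turn, are shown first, then the pair of 3p arms that share a seed. Seed bases are in capitals, 5′ to 3′.
miR-541-5p: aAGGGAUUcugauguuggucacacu
miR-411-5p: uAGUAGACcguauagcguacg
miR-410-3p: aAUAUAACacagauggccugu
miR-381-3p: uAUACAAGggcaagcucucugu
miR-300-3p: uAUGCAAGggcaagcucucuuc
miR-409-3p: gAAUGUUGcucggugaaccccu
miR-379-3p: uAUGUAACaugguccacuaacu
miR-411-3p: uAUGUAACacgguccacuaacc
The 6 abundant members carry 6 different seeds. Among all 42 sequences, miR-379-3p and miR-411-3p were the only members with a common seed. miR-300-3p and miR-381-3p differ at 3 of 22 positions, G4A, U21G and C22U, counted from the 5′ end with the base of miR-300-3p first. The substitution at position 4 lies in the seed. miR-379-3p and miR-411-3p differ at 2 of 22 positions, U10C and U22C, with the base of miR-379-3p first. Such near copies could exchange reads in counting, and their values are uncertain to that extent; no members with at least 20 reads had identical counts in all 4 libraries.

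The libraries held 11561693 to 15436447 counted reads of known miRNAs. Levels are given as counts per 1000000 such reads (CPM). T cell miRNAs (miR-142a, miR-150, miR-181a and miR-342; 9 listed) summed to 391419 and 371324 CPM in the WT and Cbl-b-/- unstimulated libraries and 189833 and 169669 CPM in the stimulated ones, with 0 of 9 at 0 reads without stimulation and 1 of 9 in each stimulated library. Intervals are 95% exact Clopper-Pearson intervals and cover the counting error of reads only. Each group is 1 library, so ratios of 2 libraries have no replicate check and carry no p-value, and reads amplified by PCR without molecular identifiers do not count independent molecules. A count of 0 allows up to 3 reads, which is 0.194 to 0.259 CPM in the 4 libraries.

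The cluster was a minor part of the miRNA pool in every library. Its 44 members together held 864 reads in WT unstimulated, 2910 in Cbl-b-/- unstimulated, 475 in WT stimulated and 1055 in Cbl-b-/- stimulated cells. These sums were 56.0 CPM (interval 52.3 to 59.8), 208 CPM (200 to 215), 36.3 CPM (33.1 to 39.7) and 91.2 CPM (85.8 to 96.9). The Cbl-b-/- unstimulated library was the highest and the WT stimulated library the lowest. By library sums Cbl-b-/- stimulated cells also lay above WT unstimulated cells (log2 0.71, interval 0.57 to 0.84), but this order across states depends on the scaling: with TMM factors (the trimmed mean of log ratios) it came to 0.05 (-0.08 to 0.18) and with DESeq2 size factors to 0.06 (-0.07 to 0.19). In these bulk samples, more cells that make the cluster's miRNAs and more of them per cell cannot be told apart. Members with at least 1 read numbered 34, 41, 35 and 35 in the libraries in the same order, and 25 had reads in all 4.

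A few members carried most of these reads. The 6 most abundant held 88.7%, 89.2%, 83.8% and 87.4% of the cluster's reads in the libraries in that order, and the other 38 shared the rest. Of the 44 members, 39 stayed under 10 CPM in all 4 libraries. miR-541-5p alone held 31.6% (28.5 to 34.8) of the cluster in WT unstimulated and 33.7% (32 to 35.4) in Cbl-b-/- unstimulated cells. In stimulated cells its share was 39.4% (34.9 to 43.9) in WT and 39.5% (36.6 to 42.5) in Cbl-b-/-. The share of miR-411-5p went the other way with stimulation, from 29.9% (26.8 to 33) to 20.8% (17.3 to 24.8) in WT and from 25.4% (23.8 to 27) to 21.9% (19.4 to 24.5) in Cbl-b-/-. The intervals of miR-411-5p overlapped between the states in Cbl-b-/- and did not in WT. Even the most abundant member, miR-541-5p, was only 256th of 1091 miRNAs by level in WT unstimulated, 177th in Cbl-b-/- unstimulated, 312th in WT stimulated and 250th in Cbl-b-/- stimulated cells.

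The level did not follow the place in the cluster step by step. miR-411-5p lies 1.1 kb from the start of the miR-379 hairpin, which opens the cluster. miR-300-3p and miR-381-3p lie at 15.3 and 17.8 kb, and miR-541-5p, miR-409-3p and miR-410-3p at 33.3, 34.1 and 34.7 kb. Between and beside them lie hairpins with few reads. miR-369-3p, at 34.4 kb, had 15 to 26 reads per library, and miR-412-5p, at 34.2 kb, had 2 reads in WT stimulated cells and 0 in the other libraries. Outside the 6 most abundant, the highest count of any member was 20, 27, 15 and 25 reads in the 4 libraries. The efficiency of ligation and cloning differs between miRNA sequences, so levels of different members compare only roughly.

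**Figure D1:**
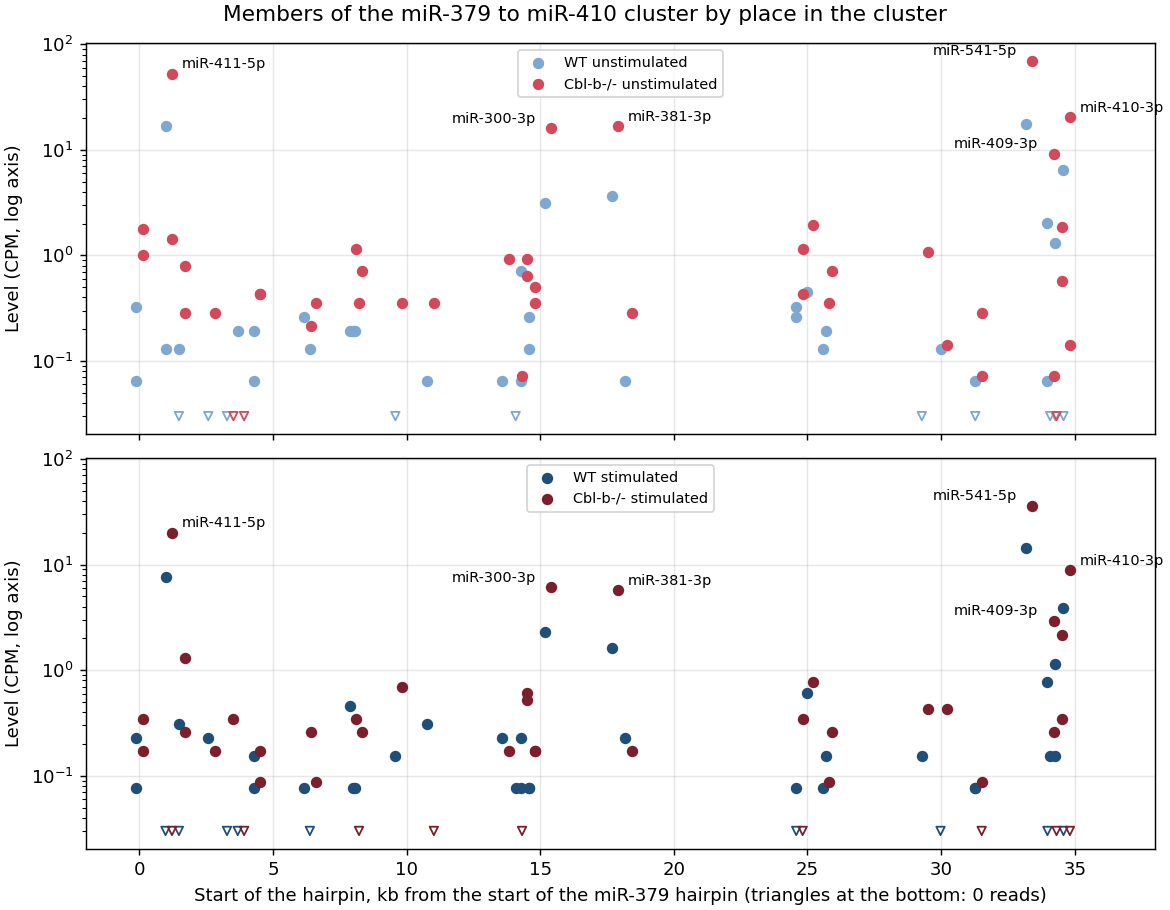
Levels (CPM, log axis) of the 44 members against the start of their hairpin in kb from the start of the miR-379 hairpin, unstimulated above and stimulated below; each point is 1 member in 1 library and open triangles mark 0 reads. The 6 labelled members stand above the rest at the start, the middle and the end of the cluster, with 1 exception. In WT stimulated cells miR-409-3p (0.765 CPM) lies below miR-369-3p (1.15 CPM).

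Unstimulated cells were compared first, to ask what absence of Cbl-b goes with in the cluster. The cluster's summed level was 3.71-fold higher in the Cbl-b-/- library (log2 1.89, interval 1.78 to 2.0). Of all 44 members, 40 had a higher level in Cbl-b-/-, 2 a lower one and 2 had no read in either library; among all 1091 miRNAs 51.1% were higher. The exceptions, miR-494-3p (4 reads in WT and 3 in Cbl-b-/-) and miR-758-3p (3 and 0 reads), rested on too few reads to give a direction. A size rule then asked for at least 20 reads over the pair, at least a 2-fold difference and an interval that excludes equality. By this rule 6.70% of 537 miRNAs were higher in Cbl-b-/- and 0.745% lower. Of the members 12 reached 20 reads, of which 10 were higher and 0 lower, and 32 were below the minimum. Of the 10, 4 had under 10 reads in WT and reached the minimum through the Cbl-b-/- library, so they had to differ. Among miRNAs with a mean below 50 CPM, where all 12 lie, 9.71% of 340 were higher and 1.18% lower. The median log2 ratio of the 12 was 2.11, against 0.03 over all 537. It includes the 4 members that had to differ, so it is no further support.

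The members with the most reads were all higher in Cbl-b-/-. miR-541-5p had 273 reads (17.7 CPM) in WT and 980 reads (69.9 CPM) in Cbl-b-/-, 3.95-fold higher (log2 1.98, 1.79 to 2.18). miR-411-5p had 258 reads (16.7 CPM) and 739 reads (52.7 CPM), 3.15-fold higher (log2 1.66, 1.45 to 1.87). miR-410-3p had 99 reads (6.41 CPM) and 287 reads (20.5 CPM), 3.19-fold higher (log2 1.67, 1.34 to 2.02). These members come from both ends of the cluster and from a 5p arm or a 3p arm, and all 3 intervals lie above 2-fold. The near copies miR-381-3p and miR-300-3p had 56 and 49 reads (3.63 and 3.17 CPM) in WT and 235 and 226 reads (16.8 and 16.1 CPM) in Cbl-b-/-. Their log2 ratios were 2.21 (1.78 to 2.66) and 2.34 (1.89 to 2.82). miR-409-3p had 31 reads (2.01 CPM) and 129 reads (9.20 CPM), 4.58-fold higher (log2 2.20, 1.62 to 2.81). The intervals of miR-411-5p and miR-300-3p, the lowest and the highest of these 6 ratios, did not overlap.

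Lower members spread more widely. The highest ratio over the minimum was that of miR-411-3p, the minor arm of its hairpin, with 2 WT reads and 20 Cbl-b-/- reads (log2 3.46, 1.42 to 6.60). Its near copy miR-379-3p had 1 and 14 reads, and reads could be exchanged between them. miR-379-5p, from the first hairpin of the cluster, had 5 and 25 reads (log2 2.46, 1.05 to 4.20). miR-134-5p, known in rat neurons to limit the size of dendritic spines, had 7 and 27 reads (log2 2.09, 0.85 to 3.53), and miR-382-5p 4 and 16 reads (log2 2.14, 0.51 to 4.18). The members over the minimum that were not past the rule were miR-369-3p, with 20 and 26 reads (log2 0.52, -0.38 to 1.44), and miR-376b-3p, with 11 and 13 reads (log2 0.38, -0.89 to 1.68). The intervals of both lie below that of the summed cluster, so these 2 members had ratios under that of the cluster as a whole at this counting error. miR-154-5p had 0 and 15 reads, for a lower limit of 1.98 on its log2 ratio. The 38 members outside the 6 most abundant summed to 98 reads (6.35 CPM) in WT and 314 reads (22.4 CPM) in Cbl-b-/- (log2 1.82, 1.49 to 2.16), which differed by 0.08 (-0.27 to 0.43) from the log2 ratio of the 6.

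**Figure D2:**
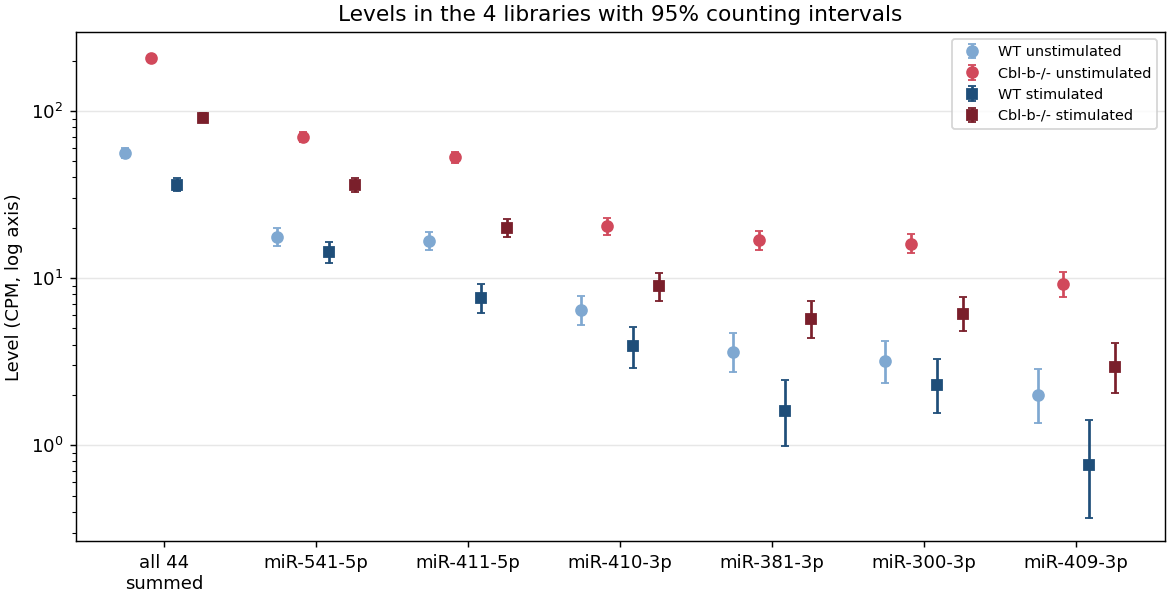
Levels (CPM, log axis) of the 44 members summed and of the 6 most abundant members in the 4 libraries; bars are 95% counting intervals, 1 library per group. In all 6 and in the sum Cbl-b-/- lies above WT within each state. Cbl-b-/- stimulated also lies above WT unstimulated at this scaling, but for miR-411-5p and miR-409-3p the interval of that ratio includes 0. With TMM factors miR-411-5p turns (log2 -0.40, -0.66 to -0.14). The intervals of miR-410-3p (-0.18, -0.59 to 0.23), miR-409-3p (-0.10, -0.85 to 0.65), miR-381-3p (-0.54 to 0.54) and miR-300-3p (0.30, -0.25 to 0.85) then include 0.

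The same question was put to stimulated cells. The summed level was 2.51-fold higher in the Cbl-b-/- library (log2 1.33, interval 1.17 to 1.49). Of the 44 members 31 were higher, 10 lower and 3 had no read in either library, beside 49.7% higher among all miRNAs. By the size rule 8.29% of 591 miRNAs were higher in Cbl-b-/- and 2.54% lower. Of the members 7 reached the minimum of 20 reads, of which 6 were higher and 0 lower, and 37 were below it. Below a mean of 50 CPM 10.2% of 361 miRNAs were higher and 4.16% lower. The median log2 ratio of the 7 was 1.40, against -0.02 over all 591. At a 4-fold limit 0 members were past the rule, beside 1.35% of all 591 miRNAs.

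The 6 were the same 6 most abundant members. miR-541-5p had 187 reads (14.3 CPM) in WT and 417 reads (36.1 CPM) in Cbl-b-/- (log2 1.33, 1.08 to 1.59). miR-411-5p had 99 and 231 reads (log2 1.40, 1.05 to 1.75). miR-410-3p had 51 reads (3.90 CPM) and 103 reads (8.91 CPM) (log2 1.19, 0.69 to 1.71), the lowest ratio of the 6. The other 3 were scarce in WT, and their ratios are correspondingly loose. miR-381-3p had 21 reads (1.61 CPM) and 66 reads (5.71 CPM) (log2 1.83, 1.10 to 2.61), and miR-300-3p 30 reads (2.29 CPM) and 71 reads (6.14 CPM) (log2 1.42, 0.79 to 2.09). miR-409-3p had 10 reads (0.765 CPM) and 34 reads (2.94 CPM) (log2 1.94, 0.89 to 3.13). miR-369-3p, the seventh, had 15 and 25 reads (log2 0.91, -0.07 to 1.94) and was not past the rule in either state. Below the minimum, miR-376b-3p had 3 and 6 reads, miR-379-5p 3 and 4, and miR-411-3p 0 and 0. The 38 other members summed to 77 WT reads and 133 Cbl-b-/- reads (log2 0.97, 0.55 to 1.39), where the 6 gave 1.39 (1.22 to 1.56); the difference was 0.42 (-0.02 to 0.86).

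**Figure D3:**
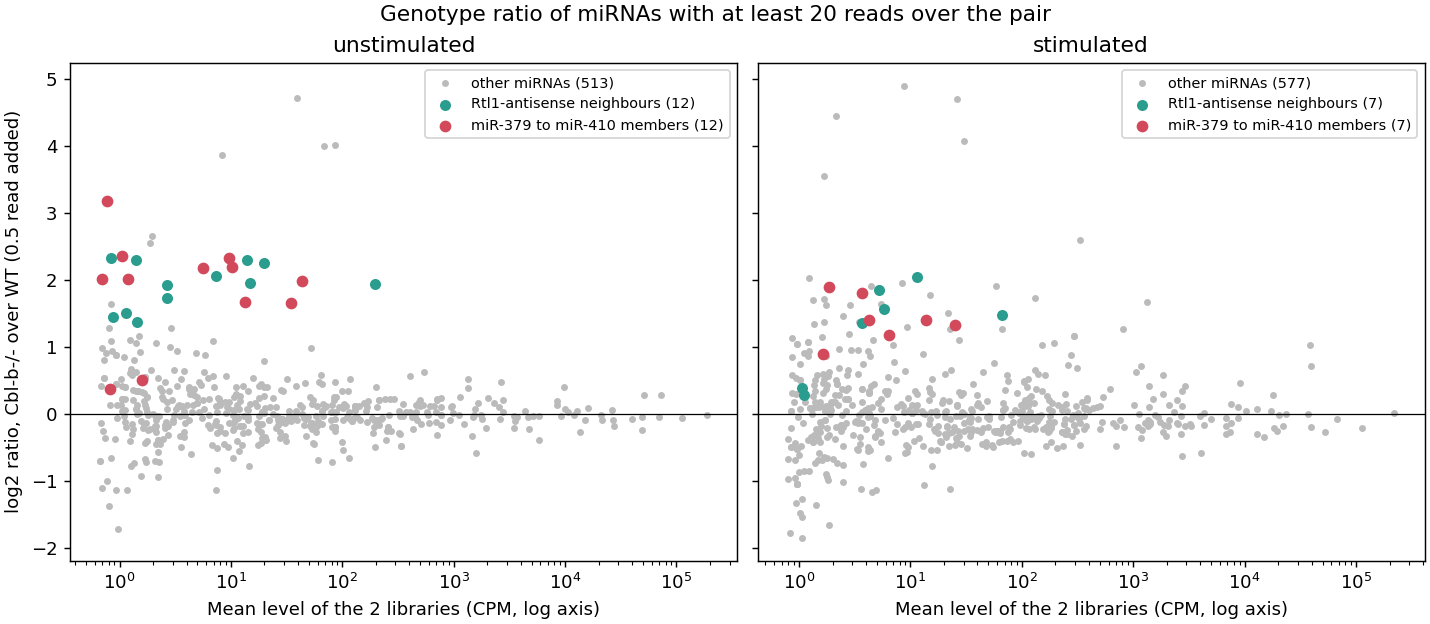
Log2 ratio of Cbl-b-/- over WT (0.5 read added to each count) against the mean level of the pair (CPM, log axis) for every miRNA with at least 20 reads over the pair; each point is 1 miRNA. The members (12 unstimulated, 7 stimulated) and the Rtl1-antisense neighbours lie above 0 at levels where most other miRNAs scatter around 0.

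In the authors' deposited table, whose ratio is WT over Cbl-b-/-, 44 of 1091 miRNAs (4.03%) were called higher in Cbl-b-/- unstimulated cells, and 17 of these 44 were members. In the authors' deposited table for stimulated cells 61 miRNAs (5.59%) were so called, 7 of them members. No member was called in the opposite direction in the authors' deposited tables, where 8 and 17 miRNAs had such calls. The authors' test also compares 1 library with 1 library. It uses the same libraries as the ratios above and an unadjusted p-value, so these calls are no independent support. Some called members were below the read minimum of the size rule. In unstimulated cells these included miR-154-5p (0 WT and 15 Cbl-b-/- reads), miR-369-5p (0 and 8) and miR-376b-5p (1 and 9). In stimulated cells miR-299a-3p (4 and 15) was below it. Such calls rest on the reads of the Cbl-b-/- library. The most abundant members, with more WT reads, were called too.

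An additive fit over all 4 libraries, with genotype and state as terms, has 1 residual degree of freedom. It assumes an equal genotype ratio in both states and treats the 2 libraries of a genotype as separate samples, although both may come from the same animals. edgeR's quasi-likelihood test with Benjamini-Hochberg adjustment over 581 miRNAs with at least 40 reads called 5.85% higher in Cbl-b-/- at an adjusted p below 0.05. Of the 8 members tested 6 were called, all higher, and the other 36 members were below the minimum. miR-541-5p had a log2 ratio of 1.66 ± 0.19 (SE; adjusted p 2.34e-05, edgeR) and miR-411-5p of 1.52 ± 0.20 (adjusted p 7.52e-05, edgeR). miR-381-3p came to 2.03 ± 0.31 (adjusted p 0.000416, edgeR), miR-300-3p to 1.92 ± 0.32 (0.000924), miR-410-3p to 1.44 ± 0.26 (0.00194) and miR-409-3p to 2.07 ± 0.39 (0.00261). miR-134-5p (1.30 ± 0.58) and miR-369-3p (0.69 ± 0.45) did not pass (adjusted p 0.272 and 0.531, edgeR). All 6 were higher in Cbl-b-/- in 2 of 2 pairs. The calls depended on the filter: with a minimum of 200 reads only miR-411-5p passed (adjusted p 0.0491, edgeR) of 6 tested, and with no minimum 4 of 44 did.

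The genotype ratio of the summed cluster was smaller in stimulated than in unstimulated cells, by 0.56 on the log2 scale (difference -0.56, counting interval -0.75 to -0.37, normal approximation). The difference was -0.65 (-0.96 to -0.33) for miR-541-5p and -0.92 (-1.68 to -0.16) for miR-300-3p. For miR-411-5p (-0.26, -0.65 to 0.14), miR-410-3p (-0.48, -1.07 to 0.10), miR-381-3p (-0.38, -1.20 to 0.45) and miR-409-3p (-0.25, -1.42 to 0.91) the interval included 0. All 6 differences had the same sign. No replicate spread is available to set them against.

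Markers of other cells were listed beside the genotype ratios. The progenitor list (miR-99a, miR-100 and miR-125b, known from stem and progenitor cells; 6 listed, 0 at 0 reads in any library) summed to 22.9 CPM in WT and 385 in Cbl-b-/- unstimulated cells, and to 7.42 and 131 CPM in stimulated cells, with 6 of 6 higher in Cbl-b-/- in both states. The erythroid list (7 listed, 0 to 2 at 0) summed to 1409 and 1653 CPM and, in stimulated cells, to 390 and 916 CPM, with 7 and 6 of 7 higher. The neural list (13 listed, 1 or 2 at 0 reads per library), of interest because the cluster is abundant in brain, stood at 581 and 579 CPM and at 610 and 683 CPM. The stromal list (11 listed, 0 to 3 at 0) stood at 312 and 266 CPM and at 104 and 96.2 CPM. These lower stromal sums rested on miR-10b-5p, and 6 and 8 of the 11 were higher in Cbl-b-/-. The epithelial list (12 listed, 0 or 1 at 0) stood at 1088 and 1071 and at 576 and 559 CPM. The myeloid list stood at 485 and 413 and at 83.4 and 69.4 CPM. The endothelial miR-126a arms stood at 119 and 71.6 and at 334 and 324 CPM. Higher in Cbl-b-/- were 6 and 8 of 13 neural and 4 and 4 of 12 epithelial miRNAs. For the myeloid list these counts were 0 and 1 of 2, and for the endothelial arms 0 and 0 of 2. The muscle and liver miRNAs listed, miR-133a-3p and miR-122-5p, stayed under 1 CPM in every library. The progenitor list thus shared the cluster's direction in both states but not its size. Its log2 ratios were 4.07 unstimulated and 4.15 stimulated, where the cluster had 1.89 and 1.33. The erythroid list was higher mainly in stimulated cells (log2 0.23 and 1.23). The part of both lists in the result was not tested.

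**Figure D4:**
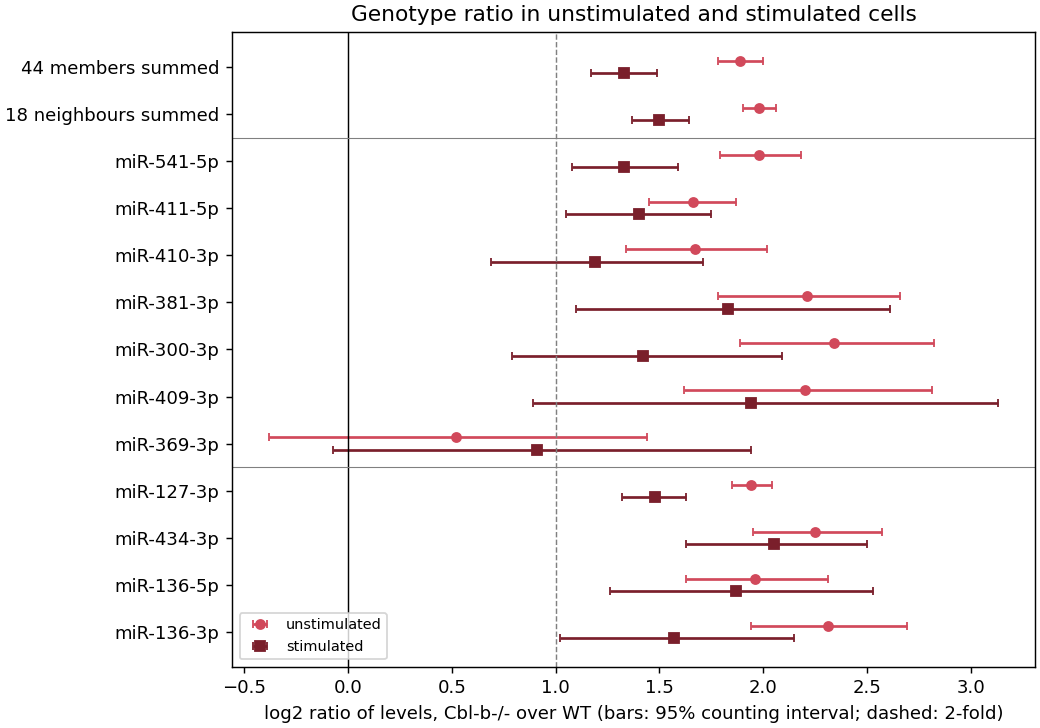
Log2 ratio of Cbl-b-/- over WT for the summed cluster, the summed Rtl1-antisense neighbours, 7 members and 4 neighbours, in unstimulated (circles) and stimulated (squares) cells; bars are 95% counting intervals and the dashed line marks 2-fold. Ratios of the sums in unstimulated cells were 1.89 for the cluster and 1.98 for the neighbours.

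The next comparison set stimulated beside unstimulated cells of each genotype. It uses the same 4 libraries as the genotype ratios, so the comparisons are not independent, and it rests on raw counts over library sums, since the deposited tables of the states were normalized separately. From 56.0 to 36.3 CPM, the summed cluster was 1.54-fold lower in stimulated WT cells (log2 -0.62, interval -0.79 to -0.46). From 208 to 91.2 CPM, it was 2.28-fold lower in stimulated Cbl-b-/- cells (log2 -1.19, -1.29 to -1.08). In WT 24 of 44 members were lower and 17 higher, beside 64.6% higher among all miRNAs. In Cbl-b-/- 35 were lower and 7 higher, beside 59.9% higher. By the size rule 3 of 7 members were lower and 0 higher in WT, where 16.1% of 585 miRNAs were lower and 41.7% higher. In Cbl-b-/- 9 of 13 members were lower and 0 higher, beside 19.5% and 39.0% of 585. Of these 9, 4 had under 10 reads in the stimulated library and reached the minimum through the unstimulated one, so they had to differ. Below a mean of 50 CPM 17.3% of 365 miRNAs were lower and 45.5% higher in WT, and 22.4% of 362 lower and 41.4% higher in Cbl-b-/-.

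miR-409-3p, miR-381-3p and miR-411-5p were past the rule in WT, with log2 ratios of -1.39 (-2.59 to -0.33), -1.18 (-1.97 to -0.43) and -1.14 (-1.49 to -0.80). In Cbl-b-/- the same 3 had ratios of -1.65 (-2.24 to -1.09), -1.55 (-1.97 to -1.15) and -1.40 (-1.62 to -1.18). miR-541-5p differed least among the 6 most abundant members, at -0.31 (-0.58 to -0.03) in WT and -0.95 (-1.12 to -0.79) in Cbl-b-/-, and was not past the rule. miR-410-3p (WT -0.72, -1.23 to -0.22; Cbl-b-/- -1.20, -1.54 to -0.87) and miR-300-3p (-0.47, -1.17 to 0.22, and -1.39, -1.80 to -1.0) were past it in Cbl-b-/- only. miR-369-3p was not past the rule in either, at -0.18 (-1.25 to 0.86) and 0.22 (-0.63 to 1.07). Its intervals allow a 2-fold lower level in WT and a 2-fold higher level in Cbl-b-/-. In Cbl-b-/- the scarce miR-379-5p, with 25 and 4 reads, was at -2.37 (-4.35 to -0.83), and miR-411-3p had 20 and 0 reads, for an upper limit of -2.03. The size of these ratios depends on the scaling. TMM factors shift every log2 ratio, by -0.61 for WT and -0.60 for Cbl-b-/-. The summed cluster then came to -1.24 and -1.79, with 5 and 11 members lower. The shift acts on every miRNA, and the share of all miRNAs lower was not counted at this scaling. These counts are therefore no stronger result for the cluster. With a minimum of 100 reads the counts were 1 and 5, also without a share of all miRNAs. At a 4-fold limit they were 0 and 2, beside 5.30% and 5.64% of all miRNAs lower.

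Arm use was read where both arms of a hairpin were listed, which held for 12 hairpins, 4 of them with at least 100 reads over the 4 libraries. The miR-411 hairpin gave almost only its 5p arm, 99.2% of 260 reads in WT unstimulated (interval 97.2 to 99.9), 97.4% of 759 in Cbl-b-/- unstimulated (96 to 98.4), and 100% of 99 and of 231 reads in WT and Cbl-b-/- stimulated cells (lower bounds 96.3 and 98.4). The miR-410 hairpin gave its 3p arm, with 0 of 99, 2 of 289, 0 of 51 and 0 of 103 reads on the 5p arm, for upper bounds of 3.66%, 2.48%, 6.98% and 3.52%. The miR-409 hairpin had 1 of 32, 1 of 130, 0 of 10 and 3 of 37 reads on the 5p arm, and the miR-369 hairpin 0 of 20, 8 of 34, 2 of 17 and 4 of 29. For miR-410, miR-409 and miR-369 the intervals of the 4 libraries overlapped. For miR-411 those of the 2 Cbl-b-/- libraries met at 98.4%, with 20 reads of the 3p arm without stimulation and 0 after it. Summed over members, 5p arms had log2 genotype ratios of 1.87 unstimulated and 1.31 stimulated and 3p arms of 1.92 and 1.36, a difference of -0.05 (-0.28 to 0.18) and -0.05 (-0.38 to 0.28).

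The Rtl1-antisense neighbours are 18 listed miRNAs of the same domain chosen by name, and their positions were not looked up. The list may therefore hold miRNAs of the domain that do not lie antisense to Rtl1. These neighbours were set beside the cluster. Their summed level was higher than the cluster's in each library, at 106 CPM (WT) and 420 CPM (Cbl-b-/-) without stimulation and 51.1 and 145 CPM with it, most of it from miR-127-3p, which targets the messenger RNA of Rtl1 on the opposite strand. By the size rule 12 of 12 neighbours over the minimum were higher in Cbl-b-/- without stimulation and 5 of 7 after it, beside 6.70% and 8.29% of all miRNAs. Of the 12, 4 had under 10 WT reads and reached the minimum through the Cbl-b-/- library, so they had to differ. The log2 genotype ratio of the cluster minus that of the neighbours was -0.09 (-0.23 to 0.04) in unstimulated and -0.17 (-0.38 to 0.03) in stimulated cells; both intervals include 0. Without miR-127-3p it was -0.21 (-0.40 to -0.01) and -0.24 (-0.52 to 0.04), so without stimulation the neighbours then had the higher ratio. With stimulation the distal cluster was less reduced than the neighbours, by 0.43 (0.22 to 0.64) in WT and 0.35 (0.22 to 0.48) in Cbl-b-/- on the log2 scale. Without miR-127-3p these differences were 0.09 (-0.20 to 0.38) and 0.06 (-0.11 to 0.24), and both intervals include 0, so they rest on that miRNA. miR-127-3p had log2 genotype ratios of 1.94 (1.85 to 2.04) and 1.48 (1.32 to 1.63), and miR-434-3p of 2.25 (1.95 to 2.57) and 2.05 (1.63 to 2.50). miR-136-5p was 3.90-fold and 3.67-fold higher, and miR-136-3p had log2 ratios of 2.31 (1.94 to 2.69) and 1.57 (1.02 to 2.15). Next to the members but outside the rule, miR-1197-3p and miR-1193-3p had at most 1 read in any library.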

How the data were processed

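Small RNA libraries of 4 CD4+ T cell samples, 1 per group, were prepared, per the labels' protocols, with the NEBNext multiplex kit. Each deposited table holds raw read counts per known mature miRNA for the 2 libraries of 1 state. The deposited normalized read count is a score, the count divided by 1 constant per library. The authors also deposited the fold of WT over Cbl-b-/-, its log2 value and a p-value with no adjustment. Per the submitters' processing notes, cutadapt 1.7.1 and GRCm38.p5 were used, with no role given; aligner, counting rule and miRNA release: not given in the sources used here.

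Raw counts were divided by column sums. Ratios carry exact Clopper-Pearson intervals of a pair's counts, and differences of log2 ratios a normal approximation. Reads per library ranged from 11561693 to 15436447. edgeR 4.0.16 fitted the additive model with TMM factors, with DESeq2 1.42.0 as an alternative; the standard errors were derived from the quasi-likelihood F. Both procedures were tested on simulated data. For the additive fit the simulated libraries were independent and did not differ between the states. That test therefore does not cover libraries that share animals or the differences with stimulation seen here. Values in every library are given for members with at least 10 CPM in a library, the other arm of their hairpins, and the 3 highest and 3 lowest genotype ratios over 20 reads; other members named were chosen after their values were seen. The members and lists were chosen with earlier results of these data known. Alternatives were other scalings, read minimums and fold limits, rows with identical counts kept once, and the sum without its most abundant member. Added after seeing the data were a limit to means below 50 CPM, the counts of members lower with stimulation, and the order of levels across states under TMM and DESeq2 scaling.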

Additional observations from a re-analysis of the deposited data

How the results depend on the processing

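The genotype ratios of the summed cluster stayed within their counting intervals under every scaling, with identical rows kept once and without miR-541-5p: log2 1.78 to 1.91 unstimulated and 1.26 to 1.33 stimulated. Their difference between the states ranged from -0.65 to -0.45. The 48 alternative genotype ratios of the 6 most abundant members did likewise, and of their 48 stimulation ratios 18 moved outside the interval and 0 turned sign. The summed stimulation ratio moved to -1.24 with TMM factors, -1.27 with DESeq2 size factors and -0.80 without miR-541-5p in WT, and in Cbl-b-/- to -1.79, -1.72 and -1.32, and to -1.39 with totals without the 10 most abundant miRNAs. Members higher in unstimulated Cbl-b-/- cells numbered 6 with a minimum of 100 reads and 18 with none in place of 10, and those higher in stimulated cells 0 at a 4-fold limit in place of 6. Members lower with stimulation in WT numbered 1 with a minimum of 100 reads, 0 at 4-fold and 5 with TMM factors or DESeq2 size factors in place of 3, and in Cbl-b-/- 5 and 2 under the first 2 in place of 9. A share of all miRNAs was counted anew only at the 4-fold limit. It was 1.35% higher in stimulated Cbl-b-/- cells, and 5.30% (WT) and 5.64% (Cbl-b-/-) lower with stimulation. The other counts have no such share beside them and are no result about the cluster. The 18 include miR-154-5p (0 WT and 15 Cbl-b-/- reads), which enters only through the Cbl-b-/- library. The additive fit called 6 members with DESeq2, column sums or RLE factors, 4 with no read minimum and 1 with a minimum of 200 reads; the cause was not tested. Over all miRNAs it called 34 higher, against 21, 19, 15, 12 and 8 in the same order of settings. The adjusted p of edgeR or DESeq2 over these settings ranged from 1.86e-06 to 0.0491 for miR-411-5p and from 3.49e-07 to 0.0696 for miR-541-5p. For miR-300-3p, miR-410-3p and miR-409-3p the edgeR adjusted p was 0.0395, 0.0395 and 0.0384 with column sums and 0.0491 each with RLE factors. These 3 calls thus lay close to the limit of 0.05 under those settings. No paired analysis was possible because each group holds 1 library and the sources used here do not say which libraries share animals. The additive fit takes the state as a term. Most members had too few reads for a ratio: 29 of 44 held under 20 reads over the 4 libraries.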

Other observations

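The profile of the summed cluster over the 4 libraries was set beside that of every other miRNA with at least 100 reads in all, 464 miRNAs, by the largest distance of the centred log2 levels in any library. This measure was chosen after the values were seen. The nearest was miR-434-5p of the Rtl1-antisense cluster, at most 0.13 away, with 44, 168, 27 and 62 reads in WT unstimulated, Cbl-b-/- unstimulated, WT stimulated and Cbl-b-/- stimulated cells. miR-136-3p (0.28), miR-127-3p (0.33), miR-434-3p (0.44), miR-341-3p (0.52) and miR-136-5p (0.55) followed. The list of neighbours, chosen with earlier results known, had 7 miRNAs among the 464, and all 7 were among the 8 nearest. Of these, miR-341-3p had 17, 60, 12 and 14 reads and miR-431-5p 19, 58, 13 and 14 in that order of libraries. Both reached 100 reads through the Cbl-b-/- unstimulated library, where the cluster is highest, so their nearness is no support.

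The nearest miRNA outside the neighbour list was miR-3963 (0.56), with 117 reads in all and 1.68, 4.14, 1.22 and 1.47 CPM in that order. It was followed by the erythroid miR-144-5p (0.64), at 4.41, 9.42, 1.38 and 4.32 CPM, and by miR-125a-5p (0.69), at 429, 661, 241 and 389 CPM. The ratios of miR-125a-5p for Cbl-b-/- over WT, log2 0.62 unstimulated and 0.69 stimulated, were smaller than those of the cluster. The erythroid miR-451a came to 0.75, at 71.6, 99.3, 24.4 and 91.8 CPM. miR-99b-5p, from the same precursor cluster as miR-125a, came to 0.79, at 324, 480, 195 and 324 CPM. With 4 libraries such likeness describes these samples only.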
